A study of Rattus norvegicus with 20 samples.

Results

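The genes of the rat major histocompatibility complex, which carry the prefix RT1, and the genes that supply and load their peptides were followed in 20 libraries of messenger RNA. Of 30560 genes in the deposited table, 41 were taken: every protein-coding gene whose name starts with RT1-, and B2m, Tap1, Tap2, Tapbp, Psmb8, Psmb9, Psmb10, Psme1, Psme2, Nlrc5, Ciita and Cd74. They comprise 20 class I chains, 9 genes of the class I machinery, the class I regulator Nlrc5, 9 class II chains, Cd74 and the class II regulator Ciita. The libraries came from 10 male rats, hypertensive per the series title and of genotype WT per the labels, which do not name the strain. A telemeter was placed at 8 weeks of age, and the rats then ate a diet with 4% NaCl for 3 weeks. A subcutaneous osmotic minipump gave 5 rats vehicle (RB030 to RB034, labelled control) and 5 rats Maresin 1 (MaR1, RB035 to RB039), a lipid mediator that macrophages make from an omega-3 fatty acid. The dose of MaR1 was at most 1.3 µg/kg/day. From each rat, cortex of 1 kidney and left ventricle gave 1 library each, so there are 4 groups of 5 rats. No group was without high salt.

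Class I molecules show peptides from inside the cell to CD8 T cells and are made by nearly all nucleated cells. Proteasomes that carry the inducible subunits Psmb8, Psmb9 and Psmb10 cut the peptides, and the activator of Psme1 and Psme2 can open these proteasomes. Tap1 and Tap2 carry the peptides into the endoplasmic reticulum, and the class I chain binds them together with beta-2 microglobulin, the product of B2m. Class II molecules pair an alpha and a beta chain, are guided by the invariant chain Cd74, and show endocytosed peptides to CD4 T cells; dendritic cells, macrophages and B cells make most of them, and tubular epithelium can be induced to make them. Ciita switches on class II genes and Nlrc5 class I genes, and interferon gamma induces both arms. RT1-B and RT1-D are the rat counterparts of HLA-DQ and HLA-DR, RT1-DM exchanges peptides on class II molecules, and RT1-DO restrains RT1-DM.

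The promoters show how the arms differ in sequence. RefSeq promoters on GRCr8 (300 bases, from 250 before the gene start to 50 after it) matched 34 of 40 member symbols, as 2 of the 41 genes share the symbol RT1-S2. Letters of 3 known elements were searched on both strands, and the letters were chosen after the promoters had been read. The Y box core TGATTGG, which the factor NF-Y binds, lay in 8 of 8 class II promoters, 8 of 16 class I promoters, 1 of 9 machinery promoters and 7.06% of all 33469 promoters. The X box core, read as G, any 2 bases, AC, any base and GATG, which RFX factors bind, lay in 6 of 8 class II promoters, 2 of 16 class I promoters, 0 of 9 machinery promoters and 2.84% of all promoters. In those 6 class II promoters the gap between the X and Y cores was 18 to 21 bases. The stretches below run from upstream of the X box to just after the Y box in the 7 matched class II promoters of genes that reached a mean of 1 FPKM (fragments per kilobase of gene, scaled to the depth of the library); capitals mark the X core, where these letters occur, and the Y core, and all are written 5′ to 3′ along the gene.
RT1-Da (chr20:4515316-4515378, + strand): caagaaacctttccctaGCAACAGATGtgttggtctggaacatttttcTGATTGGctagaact
RT1-Db1 (chr20:4560230-4560292, - strand): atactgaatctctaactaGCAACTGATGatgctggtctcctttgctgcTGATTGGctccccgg
RT1-Ba (chr20:4576964-4577026, + strand): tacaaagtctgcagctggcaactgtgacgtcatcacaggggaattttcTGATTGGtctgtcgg
RT1-Bb (chr20:4604167-4604229, - strand): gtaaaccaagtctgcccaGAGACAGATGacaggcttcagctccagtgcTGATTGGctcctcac
RT1-DMa (chr20:4712387-4712449, - strand): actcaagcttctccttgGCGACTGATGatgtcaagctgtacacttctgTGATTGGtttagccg
RT1-DOa (chr20:4758518-4758580, - strand): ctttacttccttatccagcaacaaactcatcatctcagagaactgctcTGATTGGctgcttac
RT1-DOb (chr20:4627594-4627656, - strand): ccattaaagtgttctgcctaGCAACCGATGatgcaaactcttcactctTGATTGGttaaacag

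The core of the interferon-stimulated response element, read as GAAA, any 2 bases and GAAA again, lay in 7 of 9 machinery promoters (B2m, Tap1, Tap2, Tapbp, Psmb8, Psmb10 and Psme2), 3 of 16 class I promoters and 0 of 8 class II promoters, against 3.92% of all promoters. The next stretches are shown because these machinery genes are compared between organs below; capitals mark the element, which in Tap1 reads on the opposite strand.
B2m (chr3:129549168-129549201, + strand): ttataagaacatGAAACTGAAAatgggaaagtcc
Tap1 (chr20:4668643-4668676, - strand): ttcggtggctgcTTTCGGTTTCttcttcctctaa
Tap2 (chr20:4652316-4652349, - strand): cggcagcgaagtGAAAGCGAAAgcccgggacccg
Psmb10 (chr19:50743293-50743377, - strand): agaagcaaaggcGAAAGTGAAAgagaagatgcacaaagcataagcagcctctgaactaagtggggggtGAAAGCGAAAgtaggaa
Psme2 (chr15:33052783-33052816, - strand): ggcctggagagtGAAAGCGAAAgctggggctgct
The class I genes RT1-S3 and RT1-N3 held both the element and a Y box core. RT1-S3 is shown, with each on the opposite strand, in capitals here.
RT1-S3 (chr20:2675408-2675501, + strand): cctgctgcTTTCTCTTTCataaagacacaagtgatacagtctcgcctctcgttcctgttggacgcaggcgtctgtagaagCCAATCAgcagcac
Matches of different elements shared no base in these promoters. The promoter of Cd74 held none of the 3. A match describes letters only and was not tested as a binding site. The map of matches shows the X and Y cores at a similar spacing in the class II genes.

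**Figure D1:**
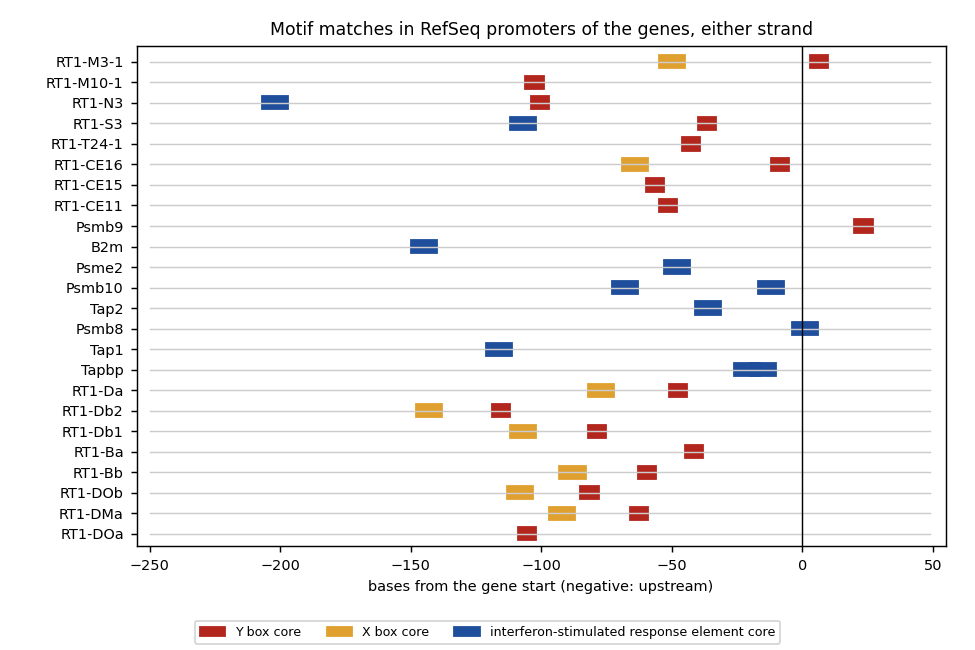
Motif matches in the RefSeq promoters of the genes with at least 1 match, by distance in bases from the gene start (horizontal axis, negative upstream); red boxes are Y box cores, yellow boxes X box cores and blue boxes interferon-stimulated response element cores, on either strand, and RT1-S2 is left out because 2 genes carry that name. In 6 of 8 class II promoters an X core lies 18 to 21 bases before a Y core, and 7 of 9 machinery promoters hold the interferon element.

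Between 19383232 and 30342034 fragments per library were counted in genes, and 1 FPKM in a gene of 1 kb stood for 19.7 to 34.9 fragments. The labelled organs were checked against their markers: the sum over 8 genes of the proximal tubule was 3211 to 5464 FPKM in kidneys and at most 17.0 FPKM in hearts, and that over 6 genes of cardiomyocytes was 11311 to 19673 FPKM in hearts and at most 1.43 FPKM in kidneys. Markers of neighbouring tissue were present in some libraries. Urothelium markers summed to over 2 FPKM in the kidneys of RB034, RB036, RB038 and RB039, adipocyte markers reached 408 FPKM in the kidney of RB039, and atrial markers summed to over 100 FPKM in the hearts of RB031, RB033, RB034, RB035 and RB038. Of the markers of cells that present antigen, those of leukocytes as a whole (4 genes) summed to 25.2 to 56.8 FPKM in kidneys and 29.8 to 55.7 FPKM in hearts. Below, means are given ± SD with n = 5 rats, and log2 differences (± SE) were taken after adding 0.5 to each FPKM, which understates changes of genes at low level, and folds are read from these differences. Adjusted p-values come from limma over all genes tested. Animals are listed in number order within a group.

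Of the 41 genes, 27 reached a mean of 1 FPKM over the 20 libraries: 8 class I chains, 8 machinery genes, Nlrc5, 8 class II chains, Cd74 and Ciita. The other 14 never exceeded 0.918 FPKM in any library, and 5 of them were at 0 in all libraries. RT1-CE11 (mean 0.523 FPKM), RT1-Db2 (0.217 FPKM) and RT1-CE14 (0.181 FPKM) stood just below the limit, and RT1-DOb, Ciita and RT1-M3-1 (1.18 to 1.68 FPKM) just above it. Tapbp, whose product tapasin bridges the transporter and the class I chain, was listed at a mean of 0.0017 FPKM. In the file its gene lies wholly inside the span of Rgl2 on the same strand. Whether its reads were counted for Rgl2 was not tested, and its level is not read further. In the file, 34 of the 41 genes lie on chromosome 20. The genome build of the file could not be read from its labels, so these positions are as deposited and are not those of the promoters above. RT1-S3 and RT1-N3 lie inside, and RT1-T24-4 mostly inside, an unnamed gene on the same strand (ENSRNOG00000031607). RT1-CE16 shares its span with RT1-CE15, and near-identical class I chains can share reads, so levels of single class I genes are uncertain. The name RT1-CE1 stands beside a description as locus A2 in the file.

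**Figure D2:**
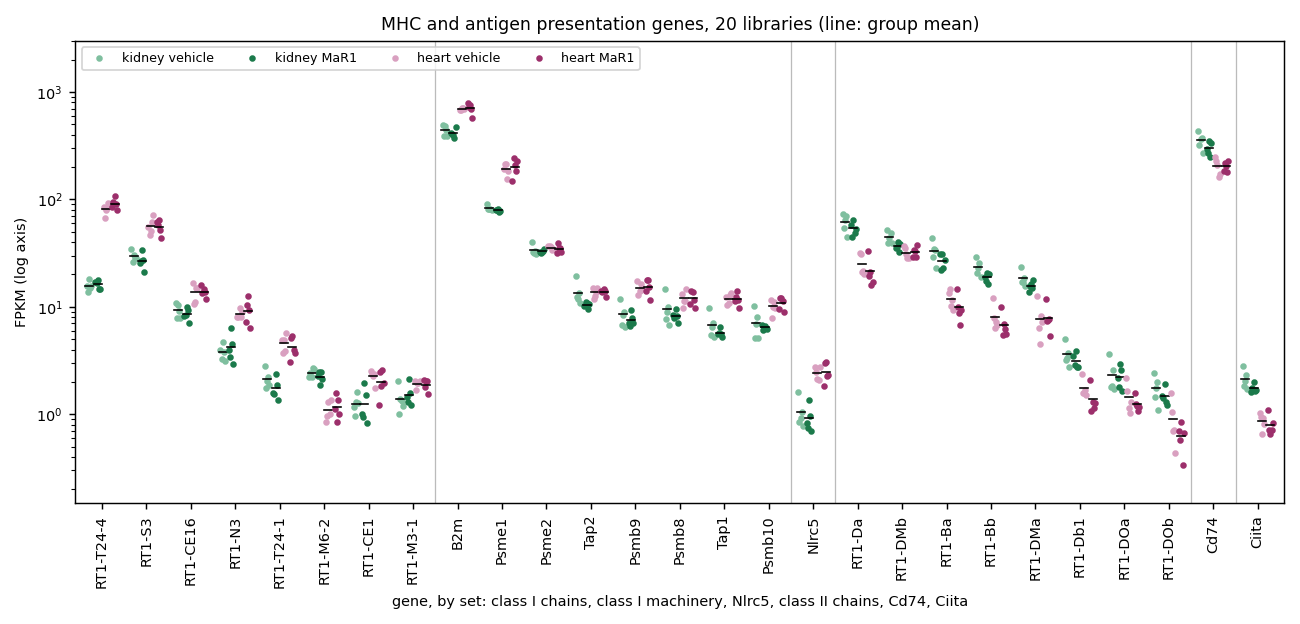
FPKM (vertical axis, log scale) of the 27 genes with a mean of at least 1 FPKM in all 20 libraries, 1 point per rat and 1 column per group of 5, with a black line at each group mean; grey lines part the sets. B2m and Cd74 stand highest, most class I and machinery genes are higher in heart (pink and purple), and class II chains, Cd74 and Ciita are higher in kidney (green).

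Among class I chains, the order of levels differed between organs. In kidney RT1-S3 was highest and made up 43.5% of the summed FPKM of class I (SD 1.77, n = 10 kidneys), with RT1-T24-4 at 24.7% (SD 2.29). In heart RT1-T24-4 made up 49.1% (SD 2.23, n = 10 hearts) and RT1-S3 31.9% (SD 2.32). The share of RT1-T24-4 ran from 20.9% to 28.0% in kidneys and from 46.3% to 53.1% in hearts. RT1-CE16 came next in both organs by its mean, followed by RT1-N3. In hearts the ranges of these 2 overlapped, at 10.7 to 16.8 FPKM and 6.32 to 12.5 FPKM, and in kidneys they did not, at 7.11 to 10.9 FPKM and 2.93 to 6.41 FPKM. The 4 lowest chains, RT1-T24-1, RT1-M6-2, RT1-CE1 and RT1-M3-1, lay between 0.832 and 5.74 FPKM in single libraries. In bulk tissue, fewer cells of a type and less RNA per cell cannot be told apart, which holds for all levels here.

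RT1-T24-4 (ENSRNOG00000042905, chromosome 20, 2684515 to 2692511) stood at 15.5, 13.7, 18.0, 15.0 and 15.7 FPKM in vehicle kidneys and at 17.2, 16.5, 17.9, 14.7 and 14.5 FPKM in MaR1 kidneys. In hearts it stood at 85.6, 66.8, 80.0, 83.0 and 92.3 FPKM with vehicle and at 85.7, 94.1, 107, 90.9 and 80.1 FPKM with MaR1. Every heart was above every kidney, and the difference of kidney minus heart was -2.41 ± 0.067 log2 (adjusted p = 8.63e-18), a 5.30-fold lower level in kidney. This was the largest difference of the 27 genes. RT1-S3 (ENSRNOG00000000777, chromosome 20, 2670709 to 2675411) stood at 34.4, 26.2, 30.5, 28.2 and 28.3 FPKM in vehicle kidneys and at 25.8, 26.4, 33.9, 27.1 and 21.2 FPKM in MaR1 kidneys. In hearts RT1-S3 stood at 55.2, 46.3, 51.0, 61.0 and 71.2 FPKM with vehicle and at 61.7, 57.4, 64.8, 51.7 and 43.4 FPKM with MaR1. The organs did not overlap for RT1-S3 either, and it was 1.98-fold lower in kidney (-0.98 ± 0.092, adjusted p = 3.92e-09).

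Most genes differed between these organs: of 12984 genes tested, 10983 (84.6%) passed, 5657 (43.6%) higher and 5326 (41.0%) lower in kidney. Of the 27 genes, 26 passed, 11 higher and 15 lower, so the share that passed says little and the direction by set is what the counts describe. Nlrc5 reached the mean of 1 FPKM only through hearts, and Ciita and RT1-DOb only through kidneys. The direction of these genes is therefore tied to the filter. Kidneys and hearts did not overlap in 13 of the 27 (56.9% of all genes), 7 with every kidney above every heart (29.8% of all genes) and 6 with every kidney below (27.1%). Of the 8 class I chains, 7 were lower in kidney and 1 higher, with a median of -0.79 log2, while all genes tested had a median of 0.025. Besides the 2 chains above, RT1-N3 (-1.06 ± 0.12, adjusted p = 1.17e-07), RT1-T24-1 (-1.02 ± 0.11, adjusted p = 2.5e-08), RT1-CE16 (-0.59 ± 0.090, adjusted p = 4.19e-06), RT1-CE1 (-0.59 ± 0.12, adjusted p = 0.000154) and RT1-M3-1 (-0.32 ± 0.090, adjusted p = 0.00301) were lower in kidney. RT1-M3-1 is the rat counterpart of mouse H2-M3, which presents formylated peptides, and its difference did not pass in the fit without the 4 kidneys over 2 FPKM of urothelium markers (-0.22, adjusted p = 0.0736). The exception was RT1-M6-2, at 2.23, 2.40, 2.23, 2.68 and 2.61 FPKM in vehicle kidneys and 2.26, 2.47, 1.87, 2.45 and 2.11 FPKM in MaR1 kidneys. In hearts it stood at 0.856, 0.959, 1.30, 1.01 and 1.35 FPKM with vehicle and 1.11, 1.57, 0.852, 1.35 and 1.01 FPKM with MaR1. Every kidney was above every heart (0.80 ± 0.082, adjusted p = 1.66e-08), on 17 to 78 fragments per library.

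The class I machinery was also lower in kidney: all 8 genes tested had a lower estimate and 7 of them passed, with a median of -0.66. B2m (ENSRNOG00000017123, chromosome 3, 109095729 to 109101766), the light chain of all class I molecules, stood at 498, 390.1, 487, 446 and 387 FPKM in vehicle kidneys and 416, 405, 399, 369 and 470.1 FPKM in MaR1 kidneys. In hearts it stood at 686, 682, 716, 713 and 697 FPKM with vehicle and 789, 718, 754, 695 and 573 FPKM with MaR1. The organs did not overlap, and B2m was 1.65-fold lower in kidney (-0.72 ± 0.066, adjusted p = 3.21e-09). With quantile normalization the difference of B2m was smaller, at -0.21 (adjusted p = 0.0403). The proteasome activator genes parted: Psme1 ran from 76.9 to 89.7 FPKM in kidneys and from 148 to 242 FPKM in hearts, with no overlap (-1.26 ± 0.077, adjusted p = 4.02e-12). Psme2, whose product forms 1 complex with that of Psme1, ran from 31.2 to 40.2 FPKM in kidneys and from 31.9 to 39.6 FPKM in hearts and did not pass (-0.083 ± 0.050, adjusted p = 0.127; 95% interval -0.19 to 0.021). It passed, lower in kidney, with quantile normalization (adjusted p = 0.0480) and without rat RB030 (adjusted p = 0.0262).

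The other machinery genes overlapped between organs while their means differed. Psmb9 ran from 6.46 to 11.9 FPKM in kidneys and from 11.5 to 18.0 FPKM in hearts (-0.88 ± 0.10, adjusted p = 1.04e-07). Tap1, on the opposite strand and sharing 856 bases with Psmb9 in the file, gave -0.89 ± 0.091 (adjusted p = 1.75e-08); the labels do not say whether strand was used, so reads in the shared part cannot be told apart. Psmb10 gave -0.61 ± 0.10 (adjusted p = 2.09e-05) and Psmb8 -0.43 ± 0.11 (adjusted p = 0.00161). Tap2, the partner of Tap1 in the transporter, differed least among the 7 (-0.20 ± 0.079, adjusted p = 0.0235), and did not pass without RB034 (adjusted p = 0.0876), without RB038 (adjusted p = 0.0613), without the 4 kidneys over 2 FPKM of urothelium markers (adjusted p = 0.133) or without the 5 hearts over 100 FPKM of atrial markers (adjusted p = 0.0979). Nlrc5 (ENSRNOG00000048222, chromosome 19, 10477628 to 10562121), the class I transactivator, ran from 0.701 to 1.61 FPKM in kidneys and from 1.83 to 3.04 FPKM in hearts, with no overlap, and was 2.02-fold lower in kidney (-1.01 ± 0.11, adjusted p = 2.54e-08). Nlrc5 passed the filter only through hearts, so this test gives no independent support.

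Class II went the other way, higher in kidney in 8 of 8 chains tested, with a median of 1.01 log2. RT1-Da (ENSRNOG00000032844, chromosome 20, 4512911 to 4518455), the alpha chain of the RT1-D molecule, stood at 73.8, 54.4, 64.7, 69.7 and 44.8 FPKM in vehicle kidneys and 57.6, 44.7, 64.9, 49.0 and 52.5 FPKM in MaR1 kidneys. In hearts it stood at 31.9, 30.9, 21.0, 21.5 and 20.1 FPKM with vehicle and 33.3, 19.5, 21.2, 16.1 and 17.1 FPKM with MaR1. The lowest kidney was above the highest heart, and RT1-Da was 2.48-fold higher in kidney (1.31 ± 0.13, adjusted p = 1.04e-08). RT1-Db1, a beta chain of the same molecule, was far lower in level, at means of 3.61 ± 0.852 and 3.13 ± 0.502 FPKM in vehicle and MaR1 kidneys and 1.75 ± 0.357 and 1.37 ± 0.416 FPKM in hearts, with no overlap (0.91 ± 0.11, adjusted p = 1.2e-07). The alpha and beta chains of RT1-B differed between organs by near-equal amounts: RT1-Ba ran from 22.1 to 43.9 FPKM in kidneys and from 6.74 to 14.6 FPKM in hearts (1.42 ± 0.13, adjusted p = 2.26e-09). RT1-Bb ran from 16.5 to 29.0 and from 5.52 to 12.1 FPKM (1.47 ± 0.12, adjusted p = 2.75e-10), and neither chain overlapped between organs.

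The peptide-editing pair was uneven. RT1-DMa ran from 13.7 to 23.4 FPKM in kidneys and from 4.54 to 12.6 FPKM in hearts (1.11 ± 0.14, adjusted p = 4.12e-07), while its partner RT1-DMb ran from 32.3 to 52.0 and from 28.2 to 37.3 FPKM with overlap (0.32 ± 0.069, adjusted p = 0.000238). RT1-DMb made up 23.5% of the summed class II FPKM in kidneys (SD 1.57, n = 10) and 38.3% in hearts (SD 5.72, n = 10), where it was the highest class II chain; in kidneys that was RT1-Da, at 33.1% (SD 1.76). The 2 chains of RT1-DO, the brake on RT1-DM, were low, RT1-DOa at 1.65 to 3.67 FPKM in kidneys and 1.03 to 2.15 FPKM in hearts (0.56 ± 0.13, adjusted p = 0.000408) and RT1-DOb at 1.10 to 2.44 and 0.336 to 1.59 FPKM (0.76 ± 0.14, adjusted p = 3.72e-05, and 1.18 with voom). Cd74 (ENSRNOG00000018735, chromosome 18, 54256778 to 54266003) stood at 438, 324, 363, 370.1 and 273 FPKM in vehicle kidneys and 296, 271, 349, 246 and 338 FPKM in MaR1 kidneys. In hearts it stood at 249, 228, 210.4, 162 and 174 FPKM with vehicle and 183, 219.8, 203, 179 and 229 FPKM with MaR1. The lowest kidney lay just below the highest heart, and Cd74 was 1.60-fold higher in kidney (0.67 ± 0.10, adjusted p = 2.03e-06), and with quantile normalization the difference was 1.03. Ciita (ENSRNOG00000002659, chromosome 10, 5140178 to 5187440) ran from 1.60 to 2.83 FPKM in kidneys and from 0.652 to 1.10 FPKM in hearts, with no overlap, 1.82-fold higher in kidney (0.86 ± 0.083, adjusted p = 6.53e-09). Ciita and RT1-DOb passed the filter only through kidneys, so their tests give no independent support.

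**Figure D3:**
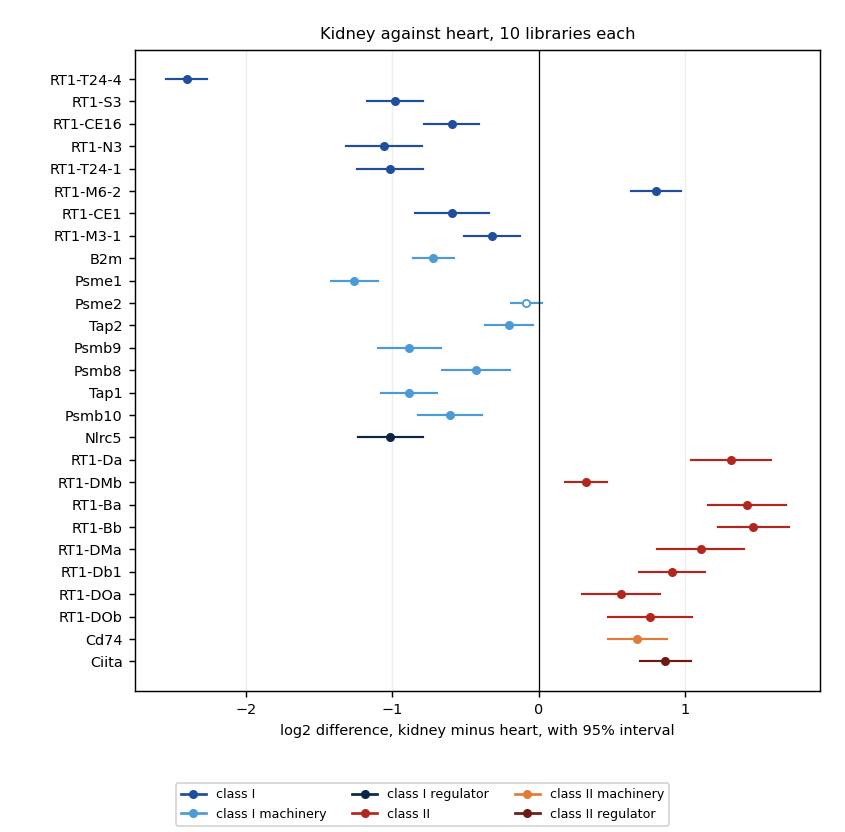
Difference of kidney minus heart (horizontal axis, log2 of FPKM + 0.5) for the 27 genes, as the limma estimate from 20 libraries with its 95% interval; filled points passed at an adjusted p of 0.05, the open point (Psme2) did not, and colours give the set. Class I chains other than RT1-M6-2 and the machinery lie left of 0, and class II chains, Cd74 and Ciita lie right of it.

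The summed FPKM of the 20 class I and 9 class II chains gave a ratio of RNA levels per library. It is not a balance of presenting molecules. The class I sum came mostly from RT1-T24-4 and RT1-S3, and RT1-S3 is described as class Ib. It leaves out B2m and genes without an RT1 name. The class II sum holds alpha and beta chains and also those of RT1-DM and RT1-DO. In kidneys the class I sum was 74.1, 57.8, 71.5, 64.9 and 62.6 with vehicle and 62.3, 61.7, 77.4, 63.6 and 51.8 with MaR1. The class II sum there was 233, 168, 190.2, 205 and 148 with vehicle and 164, 143, 182, 142 and 162 with MaR1. In hearts the class I sum was 177, 142, 164, 177 and 199 with vehicle and 179, 188, 211, 177 and 151 with MaR1. The class II sum in hearts was 113, 99.3, 76.9, 80.6 and 74.9 with vehicle and 103, 79.6, 80.9, 68.3 and 77.9 with MaR1. The ratio of class I to class II was 0.378 ± 0.0515 in kidneys (SD, n = 10; 0.317 to 0.447) and 2.12 ± 0.444 in hearts (SD, n = 10; 1.43 to 2.66), so the class II sum was the higher in every kidney and the class I sum in every heart. On the log2 scale hearts exceeded kidneys by 2.47, against a pooled SD within groups of 0.263; with the mean of log values over the chains in place of the sums the difference was 1.25. By that measure, in which the 12 class I chains below 1 FPKM weigh as much as the others, class II was higher in all 20 libraries, with class I minus class II at -3.07 to -2.57 in kidneys and -1.99 to -1.20 in hearts. The ratio of sums differed between MaR1 and vehicle by 0.17 log2 in kidneys and 0.19 in hearts. The pooled SD of 0.263 is that of single libraries and does not measure the uncertainty of these differences of means. No test was made of these sums, because the genes were chosen with earlier results known.

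**Figure D4:**
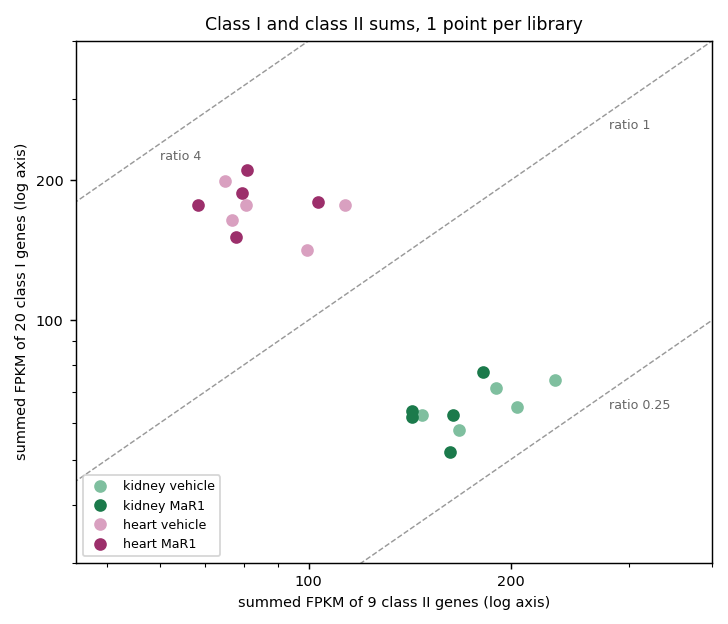
Summed FPKM of the 20 class I chains (vertical axis) against that of the 9 class II chains (horizontal axis), both on log scales, 1 point per library coloured by group, with dashed lines at ratios of 0.25, 1 and 4. The kidneys lie at ratios of 0.317 to 0.447 and the hearts at 1.43 to 2.66, and vehicle and MaR1 points mix within each organ.

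Markers of cells that present antigen, set beside the class II chains, were mostly lower in kidney. Of all genes tested 84.6% passed between organs, 43.6% higher and 41.0% lower in kidney, so the share of markers that passed says little. Of 10 macrophage markers 8 were lower and 1 higher in kidney, with sums of 170.3 to 318 FPKM in kidneys and 242 to 579 FPKM in hearts. Lyz2, the higher one, gave much of these sums, at 125 and 145 FPKM in vehicle and MaR1 kidneys and 99.2 and 107 FPKM in hearts. Cd163 passed the filter only through hearts, so its direction is tied to the filter. Of 6 tested dendritic cell markers 4 were lower and 1 higher, with sums of 11.0 to 30.5 and 29.4 to 56.0 FPKM. Clec10a gave much of these sums, at 7.31 and 8.81 FPKM in vehicle and MaR1 kidneys and 24.8 and 23.5 FPKM in hearts. Flt3 went the other way, at 1.32 and 1.38 FPKM in kidneys and 0.769 and 0.765 FPKM in hearts. It reached the mean of 1 FPKM only through kidneys, so its direction is tied to the filter and its test gives no independent support. Irf4, below the limit and not tested, also had higher means in kidney, at 0.986 and 0.989 FPKM in kidneys and 0.211 and 0.281 FPKM in hearts. By their means the dendritic markers do not all share a direction. All 8 endothelial markers were lower in kidney, with sums of 75.0 to 106 and 326 to 461 FPKM, the direction of the class I genes. B cell markers were near 0 throughout, summing over 7 genes to at most 2.76 FPKM in kidneys and 3.44 FPKM in hearts, and T cell markers summed over 8 genes to 3.94 to 10.4 and 5.08 to 9.47 FPKM. The part of these cells in the organ differences was not tested.

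Other genes of the pathways were read from 3 lists. Between organs 84.6% of all 12984 genes passed, 43.6% higher and 41.0% lower in kidney. The counts that passed in these lists therefore say little about the pathways. Of 12 tested genes of class I loading and peptide supply, 4 were higher and 7 lower in kidney. The chaperones that fold class I chains were higher, Canx at 0.64 ± 0.046 (adjusted p = 5.29e-11), Calr at 0.73 ± 0.062 (adjusted p = 7.49e-10) and Pdia3 at 0.75 ± 0.081 (adjusted p = 3.3e-08). The constitutive proteasome subunits that the inducible ones replace were lower, as the inducible ones were: Psmb6 at -0.71 ± 0.056 (adjusted p = 2.87e-10), Psmb7 at -0.74 ± 0.069 (adjusted p = 3.47e-09) and Psmb5 at -0.43 ± 0.063 (adjusted p = 2.8e-06). Of 11 tested genes of class II loading and presentation, 7 were higher and 3 lower. The lysosomal proteases Lgmn and Ctsl were the largest, Lgmn at 672 FPKM in vehicle kidneys and 69.7 FPKM in vehicle hearts (3.10 ± 0.10, adjusted p = 4.91e-17) and Ctsl at 996 and 129 FPKM (2.79 ± 0.087, adjusted p = 5.69e-17). Ifi30, a lysosomal thiol reductase, was higher in kidney too (1.28 ± 0.075, adjusted p = 2.14e-12). The invariant chain protease Ctss was lower in kidney (-0.42 ± 0.16, adjusted p = 0.0179), as was Cd40, a co-stimulatory receptor (-0.85 ± 0.13, adjusted p = 5.28e-06). Of 16 tested regulators of MHC genes, 2 were higher and 8 lower in kidney, among them both chains of the interferon gamma receptor, Ifngr1 at -0.98 ± 0.12 (adjusted p = 1.44e-07) and Ifngr2 at -0.70 ± 0.051 (adjusted p = 7.43e-11). Rfx5, a subunit of the factor at the X box, was slightly higher (0.15 ± 0.064, adjusted p = 0.0382), and Nfya and Nfyb, of the factor at the Y box, did not pass, at 0.11 ± 0.056 (adjusted p = 0.073) and -0.050 ± 0.048 (adjusted p = 0.331). The organ differences of Rfxap, Rfxank and Nfyc, also in the list, are not given here, so neither factor is described as a whole.

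In the kidney cortex none of the genes passed for MaR1 against vehicle. Across the table limma called 0 of 12446 genes (0%), with 840 (6.75%) at an unadjusted p under 0.05, and limma voom on the recovered fragments also called 0. Of 26 genes of the set tested, 23 had a lower and 3 a higher mean with MaR1, where 50.0% of all genes were lower, with a median of -0.16 log2 against 0.00022 for all genes. All 8 machinery genes (median -0.12) and all 8 class II chains (median -0.20) had a lower mean, and of the 8 class I chains 5 were lower and 3 higher (median -0.066). These genes share animals and libraries, and no count of them is a test. MaR1 and vehicle kidneys overlapped in all 26, where 1.23% of all genes did not overlap.

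An unadjusted p under 0.05 was seen for 3 genes of the set. RT1-DMb stood at 52.0, 39.3, 43.7, 48.3 and 39.5 FPKM with vehicle and 35.4, 36.4, 40.5, 32.3 and 38.6 FPKM with MaR1, means of 44.6 ± 5.55 and 36.6 ± 3.10 FPKM (-0.27 ± 0.094, 95% interval -0.48 to -0.067; limma unadjusted p = 0.0144, adjusted p = 0.665). RT1-Bb stood at 29.0, 20.8, 22.9, 25.7 and 19.1 FPKM with vehicle and 19.1, 17.5, 20.7, 16.5 and 20.1 FPKM with MaR1 (-0.31 ± 0.11; limma unadjusted p = 0.0203, adjusted p = 0.695). Tap2 stood at 19.3, 12.2, 11.8, 13.5 and 10.8 FPKM with vehicle and 10.2, 11.1, 10.8, 9.62 and 10.5 FPKM with MaR1 (-0.33 ± 0.13; limma unadjusted p = 0.0284, adjusted p = 0.715). In all 3 genes the highest value was that of vehicle rat RB030, and without this rat the differences were -0.22, -0.23 and -0.20.

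The kidney of RB030 was the highest of the 10 kidneys in 22 of the 27 genes, among them all 8 machinery genes and all 8 class II chains. How often it was the highest over all genes was not counted, so this cannot be called particular to the set. Psmb8, for example, stood at 14.8, 7.64, 8.91, 10.1 and 6.78 FPKM in vehicle kidneys and 8.41, 7.79, 9.47, 8.19 and 7.14 FPKM in MaR1 kidneys, with RB030 first. The same library had the highest sums of leukocyte (56.8 FPKM), dendritic cell (30.5 FPKM), T cell (10.4 FPKM) and B cell (2.76 FPKM) markers among kidneys, and the lowest sum of proximal tubule markers. Without RB030, 20 of 26 genes of the set had a lower mean with MaR1 and 3 had an unadjusted p under 0.05, where 55.8% and 7.13% of all genes did. Between MaR1 and vehicle kidneys, the podocyte markers tested had a lower mean with MaR1 (5 of 5 at an unadjusted p under 0.05) and those of inner medulla and thin limb (5 of 5) and urothelium (4 of 4) a higher mean, none passing after adjustment, while leukocyte markers had a median difference of 0.050. Macrophage markers had a higher mean with MaR1 in 8 of 9 (median 0.23), proximal tubule markers a lower mean in 8 of 8 (median -0.29), and adipocyte markers a higher mean in 5 of 5 (median 1.57, 2 at an unadjusted p under 0.05). All 4 urothelium markers tested, Slc4a11 and Aqp4 of inner medulla and thin limb, and the adipocyte markers Plin1 and Retn averaged below 1 FPKM in vehicle kidneys. They passed the filter only through MaR1 kidneys, so their direction is tied to the filter and their counts give no independent support. Without the 4 kidneys over 2 FPKM of urothelium markers, which left 4 vehicle and 2 MaR1 rats, 22 of 27 genes of the set had a lower mean and 0 had an unadjusted p under 0.05, where 53.1% and 9.73% of all genes did. The part of these libraries in the lower means was not tested.

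B2m averaged 442 ± 52.0 FPKM in vehicle and 412 ± 36.9 FPKM in MaR1 kidneys (-0.10 ± 0.10; 95% interval -0.33 to 0.13; adjusted p = 0.898). RT1-T24-4, the class I chain that differed most between organs, averaged 15.6 ± 1.57 and 16.2 ± 1.51 FPKM (0.051 ± 0.085; 95% interval -0.14 to 0.24; adjusted p = 0.948). RT1-Da averaged 61.5 ± 11.8 and 53.8 ± 7.83 FPKM (-0.18 ± 0.15; 95% interval -0.50 to 0.14; adjusted p = 0.846). Cd74 averaged 354 ± 60.9 and 300.0 ± 43.6 FPKM (-0.23 ± 0.14; 95% interval -0.54 to 0.078; adjusted p = 0.807). Its regulator Ciita stood at 2.83, 1.84, 2.04, 2.29 and 1.70 FPKM with vehicle and 1.60, 1.77, 2.01, 1.64 and 1.70 FPKM with MaR1 (-0.22 ± 0.12; adjusted p = 0.753), lower in mean and less spread with MaR1. Nlrc5 averaged 1.04 ± 0.332 and 0.922 ± 0.267 FPKM; its mean over kidneys was below 1 FPKM, so it was not tested there. The intervals of B2m, RT1-T24-4, RT1-Da and Cd74 span 0, and a p above the threshold does not show equal levels.

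In the left ventricle the genes of the set were split. limma called 0 of 12237 genes (0%), with 563 (4.60%) at an unadjusted p under 0.05. Voom called 0 as well. Of 25 genes of the set tested, 12 had a higher and 13 a lower mean with MaR1 (54.2% and 45.8% of all genes), and 0 had an unadjusted p under 0.05. MaR1 and vehicle hearts overlapped in all 25 (0.842% of all genes did not overlap), and the median was -0.0012 against 0.011 for all genes. In vehicle and MaR1 hearts B2m averaged 699 ± 15.2 and 706 ± 82.5 FPKM (difference 0.0062 ± 0.10; 95% interval -0.21 to 0.22). RT1-T24-4 averaged 81.5 ± 9.41 and 91.5 ± 10.1 FPKM (0.17 ± 0.10; 95% interval -0.061 to 0.40; adjusted p = 1). Cd74 averaged 205 ± 36.5 and 203 ± 21.9 FPKM (95% interval -0.29 to 0.29), and Nlrc5 2.44 ± 0.320 and 2.49 ± 0.522 FPKM. Of the 7 class II chains tested 5 had a lower mean (median -0.22), RT1-Da at 25.1 ± 5.80 and 21.4 ± 6.91 FPKM (-0.24 ± 0.20; 95% interval -0.69 to 0.20; adjusted p = 1). RT1-Bb stood at 12.1, 7.91, 6.32, 7.17 and 6.73 FPKM with vehicle and 9.97, 5.52, 6.90, 6.19 and 5.58 FPKM with MaR1, where RB030 and RB035 were the highest of their groups. RT1-DOb and Ciita were below a mean of 1 FPKM in heart and were not tested; Ciita stood at 1.03, 0.934, 0.657, 0.919 and 0.816 FPKM with vehicle and 1.10, 0.718, 0.652, 0.711 and 0.825 FPKM with MaR1.

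**Figure D5:**
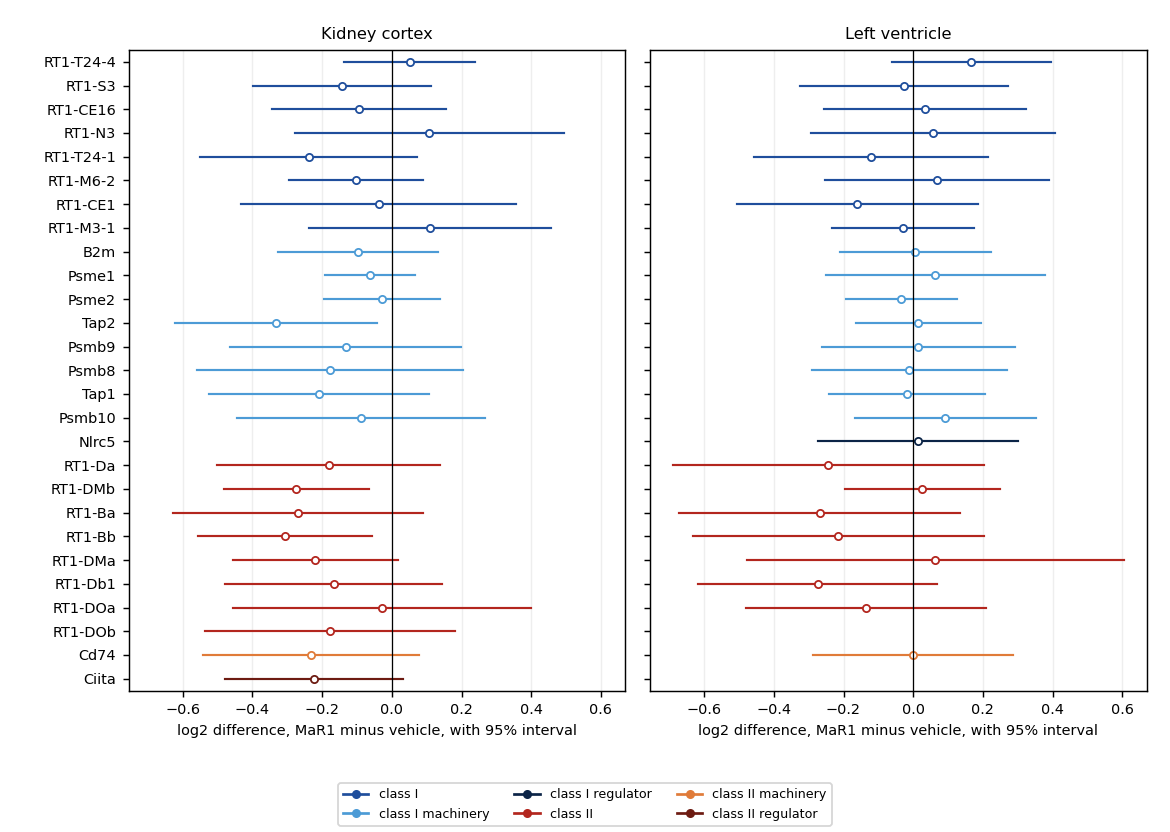
Difference of MaR1 minus vehicle (horizontal axis, log2 of FPKM + 0.5) in kidney cortex (left) and left ventricle (right), as the limma estimate from 10 libraries each with its 95% interval; open points did not pass at an adjusted p of 0.05, colours give the set, and an empty line marks a gene below a mean of 1 FPKM in that organ. No point passed, and 23 of 26 kidney estimates and 13 of 25 heart estimates lie below 0.

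Whether the response differed between organs was tested as an interaction, the response in heart minus that in kidney. limma called 0 of 12984 genes (0%), with 714 (5.50%) at an unadjusted p under 0.05, and voom called 0. Among 27 genes of the set 19 were more positive and 8 more negative in heart (53.0% and 47.0% of all genes). The smallest p-values were those of Tap2 (0.35 ± 0.16; 95% interval 0.013 to 0.68; limma unadjusted p = 0.0422, adjusted p = 0.881) and RT1-DMb (0.30 ± 0.14; 95% interval 0.010 to 0.59; limma unadjusted p = 0.0433, adjusted p = 0.881). Of the lists, 6 of 12 class I loading genes, 7 of 11 class II loading genes and 11 of 16 regulators had a lower mean with MaR1 in kidney, and 4, 8 and 4 in heart. The kidney difference of smallest p was that of Ctsl, -0.34 ± 0.12 (adjusted p = 0.683), with a mean of 996 FPKM with vehicle and 794 FPKM with MaR1, followed among class II loading genes by Lgmn at -0.40 ± 0.16 (adjusted p = 0.716). Among regulators it was Ifngr2 at -0.20 ± 0.072 (adjusted p = 0.683) and Jak2 at -0.20 ± 0.081 (adjusted p = 0.716), and among class I loading genes Lnpep, an aminopeptidase, at 0.17 ± 0.066 (adjusted p = 0.708) and Canx at 0.093 ± 0.076 (adjusted p = 0.851). In heart they were Cd40 (0.21 ± 0.15, adjusted p = 1), Ctsd (-0.10 ± 0.089, adjusted p = 1), Ifngr2 (0.12 ± 0.074, adjusted p = 1), Nfyc (0.14 ± 0.086, adjusted p = 1), Psme4 (-0.11 ± 0.11, adjusted p = 1) and Psmb5 (0.10 ± 0.09, adjusted p = 1). For the interaction they were Lgmn (0.35 ± 0.19, adjusted p = 0.939), Ctsl (0.31 ± 0.17, adjusted p = 0.939), Ifngr2 (0.32 ± 0.10, adjusted p = 0.713), Rela (0.27 ± 0.12, adjusted p = 0.881), Canx (-0.15 ± 0.092, adjusted p = 0.968) and Lnpep (-0.16 ± 0.11, adjusted p = 0.98). No gene of the 3 lists passed in the kidney, heart or interaction fit.

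Regulators were set against a target, neighbouring genes against each other, and a leukocyte marker against Cd74, over the 10 rats of an organ, 10 relations in all. In kidneys Ciita and its target Cd74 gave r = 0.86 (permutation p = 0.00056, adjusted p = 0.00187) and rho = 0.82 (permutation p = 0.00581, adjusted p = 0.0145), n = 10. Without RB030 and RB033, the rats farthest from the median of Ciita, r was 0.73, and with treatment means removed it was 0.81. In hearts the same pair gave r = 0.025 (permutation p = 0.946, adjusted p = 0.946) and rho = 0.20 (permutation p = 0.586, adjusted p = 0.731), n = 10, with r = -0.15 without RB030 and RB035 and Ciita at 0.652 to 1.10 FPKM. The difference between the organs in this correlation was not tested.

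Psmb9 and Psmb8, neighbours on chromosome 20, gave in kidneys r = 0.96 (permutation p = 8e-05, adjusted p = 0.0008) and rho = 0.93 (permutation p = 0.00031, adjusted p = 0.0031), n = 10, and in hearts r = 0.82 (permutation p = 0.00443, adjusted p = 0.00886) and rho = 0.73 (permutation p = 0.0205, adjusted p = 0.041), n = 10. Without the 2 rats farthest from the median of Psmb9 r was 0.90 and 0.72. Psmb9 and Tap1, which overlap on opposite strands, gave in kidneys r = 0.94 (permutation p = 0.00031, adjusted p = 0.00155) and rho = 0.82 (permutation p = 0.00578, adjusted p = 0.0145), n = 10, and in hearts r = 0.86 (permutation p = 0.0017, adjusted p = 0.00425) and rho = 0.84 (permutation p = 0.00369, adjusted p = 0.0145), n = 10. Without the same rats r was 0.88 and 0.71.

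Nlrc5 and B2m gave in kidneys r = 0.29 (permutation p = 0.42, adjusted p = 0.525) and rho = 0.16 (permutation p = 0.658, adjusted p = 0.731), n = 10, and r = -0.015 without RB030 and RB037. In hearts they gave r = -0.10 (permutation p = 0.81, adjusted p = 0.9) and rho = -0.042 (permutation p = 0.918, adjusted p = 0.918), n = 10, and r = 0.09 without RB035 and RB037. Ptprc, the general leukocyte gene CD45, and Cd74 gave in kidneys r = 0.45 (permutation p = 0.188, adjusted p = 0.313) and rho = 0.48 (permutation p = 0.167, adjusted p = 0.278), n = 10. Without RB030 and RB034 r was -0.034. In hearts they gave r = 0.42 (permutation p = 0.224, adjusted p = 0.32) and rho = 0.25 (permutation p = 0.49, adjusted p = 0.7), n = 10, and r was -0.17 without RB030 and RB031.

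Levels in the kidney and the heart of the same rat were compared over 10 rats, with group means removed. Of 10987 genes, 0 (0%) passed and 891 (8.11%) had an unadjusted p under 0.05, with a median r of 0.078 and a positive r in 6318. Over all these genes, the rat's own heart was the closest match of its kidney in 2 of 10 rats. Of 24 genes of the set tested, 0 passed, 22 had a positive r and the median was 0.41. The median was 0.54 over the 8 class I chains, 0.43 over 7 class II chains and 0.26 over 8 machinery genes; the genes of the set share animals and libraries, so these are descriptions. The relation was closest for RT1-N3, with r = 0.71 (permutation p = 0.0221, adjusted p = 0.547; rho = 0.44, permutation p = 0.206, adjusted p = 0.785), and 0.11 without the 2 rats farthest from the median. RT1-Db1 gave r = 0.70 (permutation p = 0.0282, adjusted p = 0.561; rho = 0.76, permutation p = 0.0152, adjusted p = 0.582), and 0.74 without the 2 rats farthest from the median. RT1-M6-2 gave r = 0.67 (permutation p = 0.0389, adjusted p = 0.602; rho = 0.64, permutation p = 0.0533, adjusted p = 0.643), and 0.39 without the 2 rats farthest from the median. RT1-M3-1 gave r = 0.66 (permutation p = 0.038, adjusted p = 0.602; rho = 0.70, permutation p = 0.0307, adjusted p = 0.602), and 0.80 without the 2 rats farthest from the median. B2m was among the exceptions, at r = -0.32 (permutation p = 0.391).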

How the data were processed

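PolyA-selected RNA of the kidney cortex and left ventricle of 10 rats was sequenced by the submitters. The deposited values are FPKM per gene (fragments per kilobase of gene, scaled to depth), made by the authors with fastp, HISAT2 2.0.5, StringTie 1.3.3b and featureCounts 1.5.0-p3, per the submitters' processing notes; the genome build, the use of strand and the handling of reads shared by several genes are not given in the sources used here. All 371175 values above 0 were whole multiples of 1 fragment within 0.01 of a fragment, which gave 19383232 to 30342034 fragments per library.

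Groups were taken from the labels. A gene was tested where its mean over the libraries of a fit was 1 FPKM or more, as log2(FPKM + 0.5) with limma 3.58.1 (R 4.3.3; empirical Bayes with a trend, Benjamini-Hochberg adjustment over all genes tested, threshold 0.05). MaR1 was set against vehicle within each organ, and kidney against heart and the interaction were fitted on all 20 libraries without the animal as a block. Correlations were tested with 100000 two-sided permutations in Python 3.11.15 with scipy 1.17.1. The fits were tested on simulated data. Alternatives were other pseudocounts, filters and normalizations, limma voom on those fragments, a block for the animal, each rat left out, and, chosen after seeing the data, leaving out libraries by their urothelium or atrial markers. Other genes were named by rule: those of the set, and in each of 3 pathway lists those of smallest p, and others named were picked after their values were seen. The genes and lists were chosen with earlier results of these data known. Of 133 list symbols 128 matched the table. Over 190 pairs of libraries, chi-square per degree of freedom was at least 10.1, so no 2 libraries agree within sampling noise. The labels give separate rats as replicates.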

Additional observations from a re-analysis of the deposited data

Results flagged for a closer look

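Of 120 groups of 5 libraries (genes and class sums by organ and treatment), 5 held a library that stood far from the other 4, and chance alone flags about 1 group in 20. RT1-M3-1 in the vehicle hearts was lowest in RB031, at 1.69 FPKM, with the others at 1.94 to 2.03 FPKM. Psme2 in the vehicle kidneys was highest in RB030, at 40.2 FPKM, with the others at 31.2 to 33.1 FPKM. Class II chains made up the other flags. RT1-Bb in the vehicle hearts was highest in RB030, at 12.1 FPKM, with the others at 6.32 to 7.91 FPKM. RT1-Db1 in the vehicle hearts was highest in RB030 too, at 2.38 FPKM, with the others at 1.51 to 1.69 FPKM, and in the MaR1 hearts in RB035, at 2.10 FPKM, with the others at 1.06 to 1.29 FPKM. The heart of RB030 was the highest of 10 in 5 of 8 class II chains, and its share over all genes was not counted. It had the highest sum of dendritic cell markers (56.0 FPKM), and the heart of RB035 had the highest sums of leukocyte (55.7 FPKM) and macrophage (579 FPKM) markers. The part of these cells in the high values was not tested.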

How the results depend on the processing

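Between organs the direction held for all 27 genes under every alternative and the call for 24 of them, the exceptions being Psme2, Tap2 and RT1-M3-1. With a mean of at least 5 FPKM fewer genes were tested, and 7292 of all genes and 17 of the set passed; leaving out 1 rat gave 10807 to 10949 and 25 to 27. With the animal as a block (paired by rat) 11041 genes and 26 of the set passed between organs, and 0 and 0 for the interaction, and the block changed no other call. Apart from that fit, the kidney and heart values of a rat, with group means removed, correlated over 10987 genes at -0.0095 to 0.18. Without kidneys over 2 FPKM of urothelium markers 10452 genes and 24 of the set passed, and without hearts over 100 FPKM of atrial markers 10632 and 25. The log2 ratio of class I to class II differed between organs by 1.25 with the mean of logs. For MaR1 in kidney, leaving out 1 rat gave 0 to 1 calls over all genes, with 1 call without RB035. For the interaction, 1 gene passed with a pseudocount of 0.1, and leaving out 1 rat gave 0 to 3, with 3 without RB035 or RB039 and 1 without RB036; the cause was not tested. Small MaR1 differences changed sign. In heart B2m was -0.020 with quantile normalization, -0.0054 with TMM and -0.050 without those hearts, and Tap2 was -0.0014 with quantile normalization and -0.032 without those hearts. For the interaction RT1-T24-4 was -0.0095 without those kidneys and RT1-Bb -0.21 without those hearts. Leaving out 1 rat gave for heart -0.036 to 0.079 (B2m), -0.033 to 0.054 (Tap2), -0.052 to 0.10 (Nlrc5), -0.025 to 0.077 (RT1-DMb) and -0.081 to 0.074 (Cd74), for the interaction -0.20 to 0.057 (RT1-Da) and -0.038 to 0.18 (RT1-Bb), and for r -0.15 to 0.48 (Nlrc5 and B2m, kidney), -0.32 to 0.29 (the same, heart) and -0.25 to 0.21 (Ciita and Cd74, heart). Near-identical class I genes and fragments per gene limit the low chains.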

Other observations

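Some class I-like genes of the table carry no RT1 name and were not counted above. ENSRNOG00000062487 stood at 17.4 ± 3.20 FPKM in vehicle and 18.8 ± 2.57 FPKM in MaR1 kidneys, and at 21.8 ± 5.17 and 24.98 ± 3.80 FPKM in hearts (SD, n = 5 rats), above every named class I chain but RT1-S3 by its means in kidneys, and above all but RT1-T24-4 and RT1-S3 in hearts. AABR07044383.1 stood at 5.20 ± 0.734 and 5.01 ± 0.804 FPKM in kidneys and at 14.3 ± 1.82 and 15.3 ± 1.24 FPKM in hearts, where every heart was above every kidney, as for RT1-T24-4. Other MHC-like genes without an RT1 name were lower in level and went both ways. ENSRNOG00000031607, which spans RT1-S3 and RT1-N3, averaged 3.88 and 3.06 FPKM in kidneys and 2.36 and 1.73 FPKM in hearts. AC098547.2 averaged 1.32 and 1.32 FPKM in kidneys and 0.498 and 0.397 FPKM in hearts. ENSRNOG00000069480 averaged 0.643 and 0.626 FPKM in kidneys and 1.13 and 1.17 FPKM in hearts.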
